A study of Homo sapiens with 6 samples.

Results

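The ErbB family of receptor tyrosine kinases and the ligands that engage it were examined in HSC3 cells, an established OSCC cell line. The 10 genes comprised the 4 receptors (EGFR, ERBB2, ERBB3 and ERBB4) and 6 ligands that bind EGFR (EGF, TGFA, AREG, EREG, HBEGF and BTC), of 20090 protein-coding genes on chromosomes 1 to 22 and X. They were chosen by name, and a called region was assigned to a gene when it overlapped the gene body or the 5 kb upstream of it in GRCh37 (hg19). By this rule the genes held 14 of 19705 H3K27ac regions in cells transfected with a control siRNA (siCONT) and 12 of 17672 in cells transfected with an siRNA to the lncRNA DLEU1 (siDLEU1, named siDLEU1-2 in the text of the study). For H3K4me3 they held 103 of 58582 regions in siCONT cells and 69 of 56943 in siDLEU1 cells. All cells were unmodified HSC3 cells collected 72 h after transfection, and 1 ChIP-seq library was made for each siRNA and mark. The lists do not measure how far DLEU1 was depleted. No value below has a replicate check, no p-value is given, and intervals cover counting error only.

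EGFR-family ligands are made as membrane-bound precursors, released by proteases, and bind receptors that pair with one another to activate the Ras-MAPK and PI3K-Akt cascades. ERBB2 has no known ligand and acts as a partner of the other receptors, while ERBB3 has little kinase activity of its own. EGFR is abundant in squamous epithelia and is a drug target in squamous carcinoma of the head and neck, and AREG, EREG, TGFA and HBEGF are ligands that such cells can make for themselves. H3K27ac marks active promoters and enhancers, and H3K4me3 marks mainly the promoters of active genes. The comparison asked how these marks at the genes differed between control cells and cells in which DLEU1 was targeted.

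Several measures were used. Fold enrichment over the local background is scaled within a library, so a region was described by its percentile among all regions of its list, with 100 for the strongest and 0 where a gene had no region. The number of fragments at the summit was recovered from the fold enrichment and the p of each region. Where a region was present in both libraries, fragments per M reads were compared as a ratio of siDLEU1 over siCONT, with a 95% exact counting interval. The recovered depths were 21.5 and 29.4 M reads for H3K27ac and 28.4 and 22.3 M for H3K4me3, in siCONT and siDLEU1 cells. Regions were paired one to one, in the same way for the 10 genes and for all regions. The median ratio over all 15260 H3K27ac pairs was 0.577, with 0.377 to 0.841 as the 5th to 95th percentiles. Over 40833 H3K4me3 pairs it was 1.08, with 0.546 to 1.93. Ratios below are read against these values, and all regions means all pairs there. Fragment length, on which this count also depends, was 187 and 176 bp in the H3K27ac libraries and 200 and 186 bp in the H3K4me3 libraries.

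The squamous label was checked with markers. An H3K27ac region was found at 9 of 9 squamous epithelial genes in siCONT cells and at 8 in siDLEU1 cells, DSG3 being the exception. Not all were strong, since KRT6A stood at percentile 1.91 in siCONT cells and 36.0 in siDLEU1 cells, and DSG3 at 26.3 in siCONT cells. The others ran from 52.9 (KRT17) to 80.2 (CDH1) in siCONT cells. None was found at 4 blood cell genes or at CDH5, an endothelial gene, in either library, and PECAM1 was not matched. Of 4 fibroblast genes, COL1A1 had a weak region at percentile 15.8 in siCONT cells and 6.11 in siDLEU1 cells. H3K4me3 did not separate these types in the same way, since both libraries had H3K4me3 regions at PTPRC (percentiles of 23.4 and 40.2) and CD68 (55.1 and 80.4) of the blood cell genes, at CDH5 (58.7 and 65.9), and at PDGFRB (65.7 and 61.1) and COL1A1 (66.1 and 42.7) of the fibroblast genes.

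At the receptors and ligands, H3K27ac regions within the gene body and 5 kb upstream lay mostly at promoters. More distant regions were not assigned to the genes. A region lay at the canonical promoter of 8 of the 10 genes in both libraries, EGF and ERBB4 being without one. Of the 14 control regions, 13 were overlapped by a siDLEU1 region (92.9%, exact 95% interval 66.1 to 99.8), whereas 22.2% of all control regions were not overlapped. Each of the 12 siDLEU1 regions overlapped a control region, whereas 1.24% of all siDLEU1 regions did not. These counts leave out the near-identical copy of AREG, described with that gene. The covered length was 15454 bp in siCONT cells and 13279 bp in siDLEU1 cells, a ratio of 0.859 beside 0.744 over all genes. Without EGFR the ratio was 0.767. In bulk cells, fewer cells with a mark and less of it in each cell cannot be told apart. For H3K4me3, of 103 control regions, 68 were overlapped (66.0%, 56.0 to 75.1), against a background of 23.6% not overlapped, and 11 of the 69 siDLEU1 regions were not overlapped, against 21.2%. The covered length was 85214 and 68770 bp, with a ratio of 0.807 beside 0.884 over all genes. Without EGFR the ratio was 0.961 and 7 of 38 control regions were not overlapped (18.4%).

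**Figure D1:**
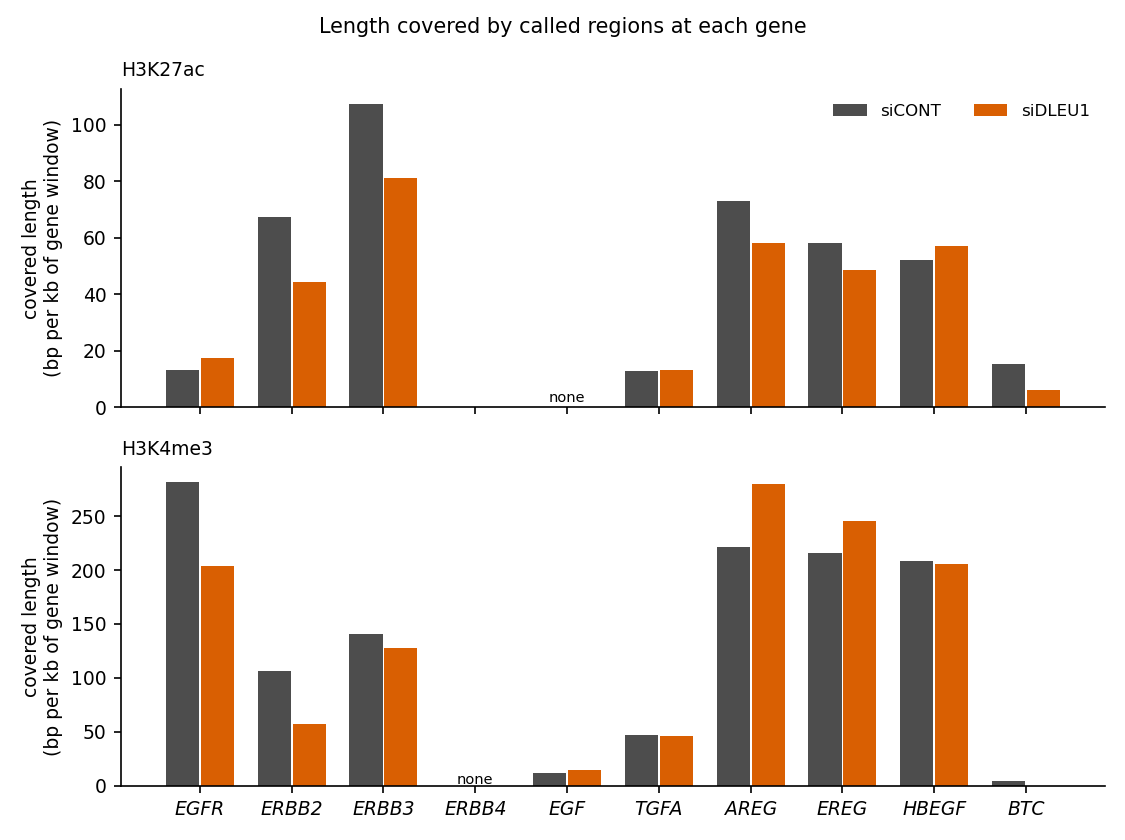
Bars give the length covered by H3K27ac (top) and H3K4me3 (bottom) regions at each gene, in bp per kb of gene window, in siCONT (grey) and siDLEU1 (orange) cells, with 1 library per bar. H3K27ac covered more of EGFR, TGFA and HBEGF in siDLEU1 cells, H3K4me3 covered less of EGFR, and the ERBB4 bar of 0.174 bp per kb is too low to see.

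The sequences below come from GRCh37 and are given 5' to 3' on the strand of the gene, with matches to 3 motifs, searched on both strands, in capitals. The motifs were GGGCGG for SP1, TGANTCA for AP-1 and GGAATG for TEAD. The promoters are the 200 bases just upstream of the canonical TSS, and they are shown for EGFR, the receptor whose promoter held the most fragments for both marks, for BTC and HBEGF, the ligands with the lowest and highest H3K27ac ratio, and for AREG, whose promoter has an exact copy. The windows in EGFR intron 1 are centred on the control summits of the H3K4me3 regions at 25.5 and 114.6 kb, whose ratios lay on opposite sides of the median.
EGFR promoter (chr7:55086510-55086709, plus strand): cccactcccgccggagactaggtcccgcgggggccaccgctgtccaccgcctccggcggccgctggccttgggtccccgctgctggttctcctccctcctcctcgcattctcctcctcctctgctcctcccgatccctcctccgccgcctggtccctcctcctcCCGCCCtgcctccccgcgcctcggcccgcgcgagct
BTC promoter (chr4:75719734-75719933, minus strand): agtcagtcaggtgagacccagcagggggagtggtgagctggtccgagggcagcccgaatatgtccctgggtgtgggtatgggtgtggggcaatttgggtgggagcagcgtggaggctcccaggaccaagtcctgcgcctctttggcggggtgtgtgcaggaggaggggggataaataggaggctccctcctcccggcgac
HBEGF promoter (chr5:139726189-139726388, minus strand): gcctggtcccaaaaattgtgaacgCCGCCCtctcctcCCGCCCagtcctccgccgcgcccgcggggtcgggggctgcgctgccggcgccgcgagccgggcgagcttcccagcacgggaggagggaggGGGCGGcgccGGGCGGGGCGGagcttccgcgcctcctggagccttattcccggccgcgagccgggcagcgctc
AREG promoter (chr4:75310653-75310852, plus strand): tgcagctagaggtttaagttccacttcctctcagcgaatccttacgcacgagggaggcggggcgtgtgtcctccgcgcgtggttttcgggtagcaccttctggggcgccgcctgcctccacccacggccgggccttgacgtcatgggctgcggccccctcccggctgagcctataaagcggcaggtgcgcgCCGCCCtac
EGFR intron 1 at 25.5 kb (chr7:55112112-55112311, plus strand): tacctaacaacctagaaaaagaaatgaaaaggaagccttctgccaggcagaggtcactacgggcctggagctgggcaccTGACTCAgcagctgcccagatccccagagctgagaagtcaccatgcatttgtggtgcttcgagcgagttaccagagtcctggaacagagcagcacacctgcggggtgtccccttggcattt
EGFR intron 1 at 114.6 kb (chr7:55201251-55201450, plus strand): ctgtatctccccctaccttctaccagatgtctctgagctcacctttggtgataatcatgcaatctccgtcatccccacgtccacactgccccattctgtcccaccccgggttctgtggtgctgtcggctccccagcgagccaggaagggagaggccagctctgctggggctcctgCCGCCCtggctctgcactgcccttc

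The EGFR and HBEGF promoters were rich in G and C, at 75.5% and 78%, with 21 and 29 CpG dinucleotides and 1 and 5 SP1 matches, some of which overlap. The BTC promoter was 64.5% G and C, but held 7 CpG dinucleotides and no match to the 3 motifs. An SP1 match was present in 56.5% of the same windows at 19811 protein-coding genes, an AP-1 match in 3.73% and a TEAD match in 7.45%. In 200-base windows centred on the summit, an SP1 match was present in 7 of the 14 control H3K27ac regions of the 10 genes (50%), beside 37.4% of all control H3K27ac regions, and an AP-1 match in none, beside 2.61%. The window at 25.5 kb in EGFR held 1 AP-1 match and lies within an exon (chr7:55111526-55113697) of the EGFR transcript EGFR-207, for which the annotation defines no coding sequence. The window at 114.6 kb held 1 SP1 match. A match describes letters and does not show that a factor was bound.

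EGFR spans chr7:55086710-55279321 on the plus strand, with 28 exons in the canonical transcript, and its exceptionally long intron 1 takes up the first part of the gene. Its H3K27ac regions lay at the promoter and just inside intron 1. The main region ran over chr7:55086746-55088438 in siCONT cells (1693 bp) and over chr7:55086316-55088418 in siDLEU1 cells (2103 bp), where it took in a separate control region of 294 bp on the upstream side. Its summit held 203 fragments in siCONT cells and 173 in siDLEU1 cells, and its percentile was 94.7 and 99.4. The ratio of fragments per M was 0.623 (0.505 to 0.766), and 66.2% of all regions had a ratio at or below it. The region 2.1 kb downstream of the TSS was 632 and 1329 bp wide, with 74 and 82 fragments and a ratio of 0.809 (0.584 to 1.12), and 93.7% of all regions lay at or below that value. The covered length was 2619 and 3432 bp, a ratio of 1.31, and its rank among the 20090 genes was 1369 and 180. A longer H3K27ac cover after siDLEU1 was seen at 5.89% of all genes with a region and at 3 of the 9 members with one, AREG being counted without its copy. The EGFR promoter stood near the top of both lists, also by fragments (percentiles of 99.3 and 99.6), and its ratio was within the range of other regions. The outer limits of the promoter regions were close, at chr7:55086328-55088438 in siCONT cells and chr7:55086316-55088418 in siDLEU1 cells. The longer cover of EGFR lay in the wider region at 2.1 kb and in the closed gap between the control promoter regions.

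**Figure D2:**
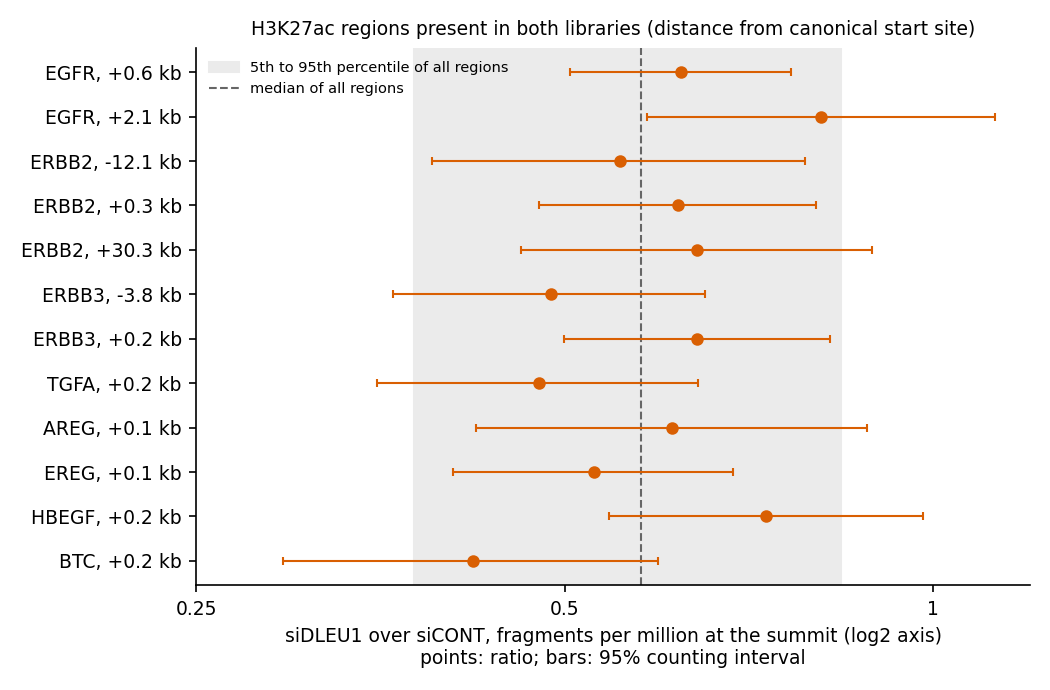
Points give the ratio, siDLEU1 over siCONT, of H3K27ac fragments per M at the summit of each region present in both libraries, on a log2 axis, and bars the 95% counting interval. The dashed line is the median of all regions (0.577) and the grey band their 5th to 95th percentiles. BTC lies lowest at 0.421 and EGFR at 2.1 kb highest at 0.809.

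H3K4me3 along EGFR was far more extensive than H3K27ac. It was called as 65 regions covering 55581 bp in siCONT cells, rank 2 among the 20090 genes by number and by length, and as 36 regions covering 40294 bp in siDLEU1 cells, ranks 12 and 7. Of the 65 control regions, 37 were overlapped in siDLEU1 cells (56.9%, 44 to 69.2), and 5 of the 36 siDLEU1 regions were not overlapped in siCONT cells. The 28 control regions that were not overlapped were weak by fold enrichment, with a median percentile of 10.5 and a highest of 58.0. They had a median width of 289 bp and a median of 35 fragments at the summit, and the one at 28.2 kb, 1670 bp wide, had 68 fragments. The 37 overlapped ones had a median percentile of 52.5, a median width of 855 bp and a median of 66 fragments. Among control regions under percentile 60, 28 of 52 at EGFR were not overlapped (53.8%), beside 38.2% of all such regions. This cut lies just above the highest of the 28, so it kept all of them but only 24 of the 37 overlapped ones. The EGFR share therefore depends on the cut. Over the 182 genes with at least 20 control H3K4me3 regions, the median share overlapped was 68.2%, and 44 of them, EGFR included, stood at or below 56.9%.

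The differences along EGFR were uneven. From 5 kb upstream to 4.5 kb inside the gene, 4 regions were called in each library. Between 4.5 and 20 kb there were 9 control regions and 1 siDLEU1 region, and 8 of the 9 were not overlapped. The numbers were 14 and 7 from 20 to 50 kb, 13 and 6 from 50 to 85 kb, and 24 and 16 from 85 to 130 kb. Beyond 130 kb, where the antisense lncRNA gene EGFR-AS1 overlaps EGFR, there was 1 control region and there were 2 siDLEU1 regions. At the regions of 20 to 50 kb present in both libraries, the median ratio of fragments per M was 1.01 over 7 pairs, with 3 of 7 above the median of all regions. At those of 85 to 130 kb it was 1.26 over 14 pairs, with 9 of 14 above it. Over all 29 paired EGFR regions the median was 1.09, beside 1.08 over all regions. With the strongest overlapping siDLEU1 region taken for each control region, an alternative chosen after seeing the data, these medians were 1.22 over 9 regions, 1.27 over 18 and 1.22 over 37, beside 1.13 over all regions, so the gap between the stretches of 20 to 50 kb and 85 to 130 kb depended on the pairing.

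Single strong regions of EGFR went in different directions. The region around the TSS had 275 fragments in siCONT cells and 264 in siDLEU1 cells, with a ratio of 1.22 (1.03 to 1.45). At 25.5 kb, the region shown above was 2065 and 839 bp wide, with 193 and 82 fragments, percentiles of 91.9 and 63.4, and a ratio of 0.541 (0.413 to 0.705). Of all H3K4me3 regions, 4.84% had a ratio as low. At 114.6 kb the width was 1824 and 1868 bp, with 197 and 232 fragments, percentiles of 90.4 and 98.9, and a ratio of 1.5 (1.24 to 1.82), at or above that of 84.2% of all regions. After siDLEU1 this was the EGFR region of highest fold enrichment, above the promoter at percentile 96.6, although the promoter kept more fragments. At an annotated EGFR TSS about 91 kb into the gene, a region of 3241 and 3248 bp had percentiles of 97.3 and 97.6 and a ratio of 1.03 (0.842 to 1.25). Its summit lay at 91.8 kb in siCONT cells and 90.9 kb in siDLEU1 cells, so this ratio compares different summits. The intervals of the regions at 25.5 and 114.6 kb did not overlap.

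Further EGFR regions gave a mixed picture. Next to the region at 25.5 kb, a control region at 24.4 kb of 1531 bp had 101 fragments, against 58 in a siDLEU1 region of 579 bp, with a ratio of 0.732 (0.520 to 1.02). At 35.4 kb the fragments were 180 and 159 and the percentiles 85.5 and 84.5, with a ratio of 1.13 (0.904 to 1.40). At 46.7 kb they were 97 and 93, with a ratio of 1.22 (0.909 to 1.64). At 56.7 kb the fragments were 32 and 76 and the ratio 3.03 (1.98 to 4.73), the highest at EGFR, with 99.5% of all regions at or below it. The siDLEU1 summit of that pair lay at 55.3 kb, so this ratio compares different summits. At 67.2 kb the fragments were 82 and 37, the widths 1232 and 444 bp and the ratio 0.575 (0.379 to 0.858), at or above that of 6.03% of all regions. Several regions near and beyond the intronic TSS had ratios above the median of all regions. At 90 kb the fragments were 112 and 128, with a ratio of 1.46 (1.12 to 1.89), and at 101.6 kb they were 148 and 152, with a ratio of 1.31 (1.04 to 1.65) and widths of 1680 and 3491 bp.

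Overlap between the marks at EGFR was limited to the promoter. In siCONT cells only 2 EGFR H3K4me3 regions, both at the promoter, overlapped an H3K27ac region, and in siDLEU1 cells 1 did.

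**Figure D3:**
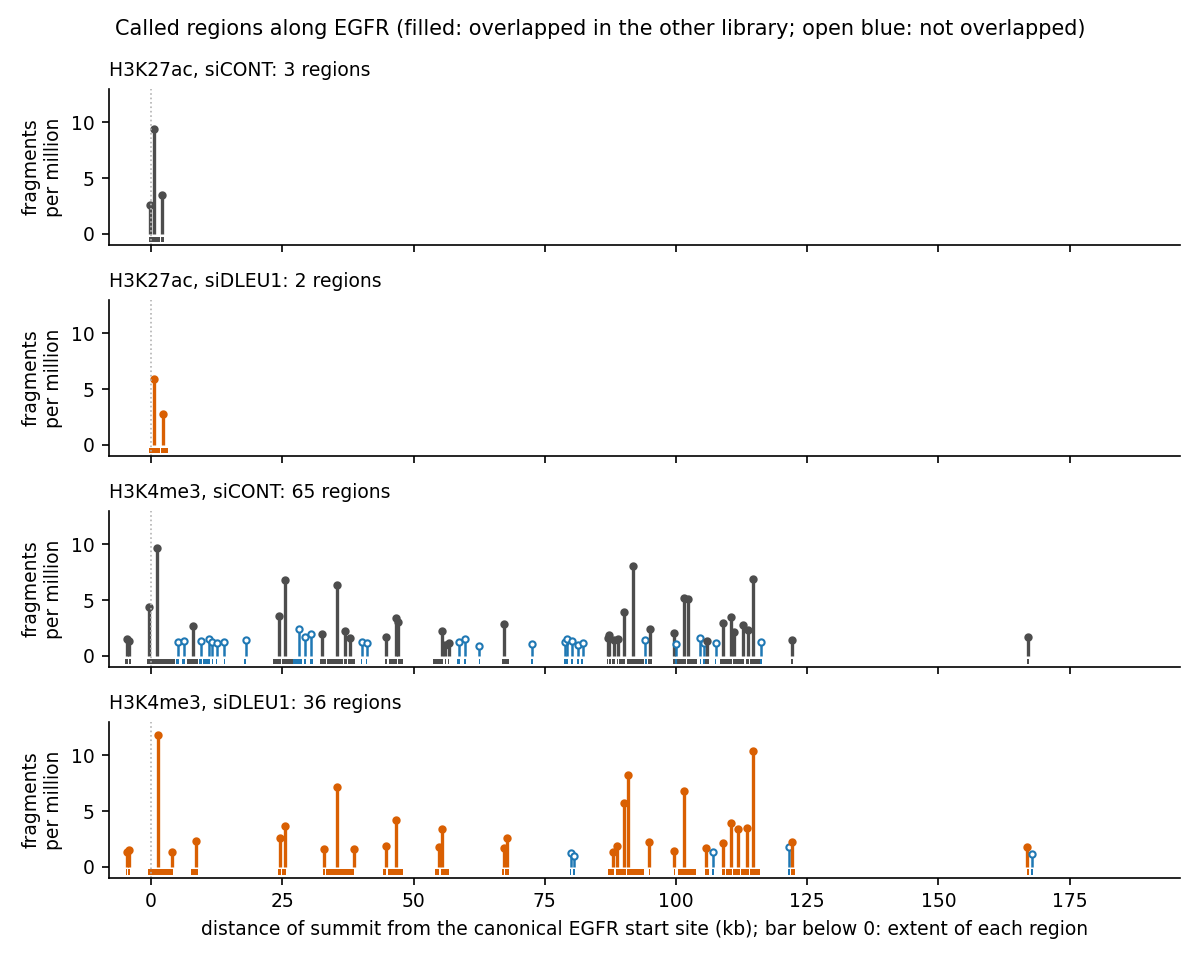
Stems mark the summit of each H3K27ac or H3K4me3 region along EGFR by distance from the canonical TSS in kb, with height in fragments per M reads, in siCONT (grey) and siDLEU1 (orange) cells. Open blue stems were not overlapped in the other library, and bars below 0 give the extent of each region. The 28 unmatched control H3K4me3 regions are all under percentile 60 by fold enrichment and 8 of them lie between 4.5 and 20 kb.

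The local background at EGFR was high in each library. No EGFR region in any list had a background as low as the level of the genome as a whole. At H3K4me3 regions its median was 2.48 times that level in siCONT cells and 3.01 times in siDLEU1 cells, beside 1.28 times over all regions in each list, and 9.15% and 7.58% of all regions had as much. At the H3K27ac regions it was 6.04 and 3.14 times, beside 1.13 and 1.2 over all regions. A higher background lowers the fold enrichment that a given number of fragments gives, and its part in the regions called at EGFR was not tested. The recovered control depth was low, at 7.18 M reads in siCONT cells and 6.73 M in siDLEU1 cells. Backgrounds of a few times the genome level, here and at the genes below, therefore rest on few control reads. No interval is given for them.

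In a comparison of covered length over the 4 lists, the protein-coding genes nearest to EGFR (Euclidean distance of log2 of the covered bp plus 1) were SEPTIN9 at 0.704, BCAR3 at 0.758, RXRA at 0.830, TP63 at 0.865 and PTPN14 at 0.887. With the 5 kb upstream these genes span 128 to 290 kb, and they held 28 to 48 H3K4me3 regions in siCONT cells and 25 to 37 in siDLEU1 cells. TP63, a master transcription factor of squamous epithelium, had 35 in siCONT cells and 37 in siDLEU1 cells.

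ERBB2 (chr17:37844167-37886679, plus strand) had 3 H3K27ac regions in each library. Its canonical promoter region was 1438 and 966 bp wide, with 131 and 111 fragments, and its percentile was 75.3 in siCONT cells and 91.6 in siDLEU1 cells. The ratio of 0.619 (0.476 to 0.803) was at or above that of 65.0% of all regions, and by number of fragments the percentile was 84.7 and 86.6. The other H3K27ac regions at ERBB2 are shared with neighbours. At an upstream ERBB2 TSS next to the TSS of PGAP3, which acts in the maturation of GPI anchors, percentiles were 62.3 and 41.9, and at the 3' end next to the TSS of MIEN1 they were 64.5 and 42.8. By fragments the percentiles were 52.6 and 41.0 on the PGAP3 side and 54.6 and 53.7 on the MIEN1 side, with ratios of 0.555 and 0.641. The local background there was 1.0 times the genome level in siCONT cells, and in siDLEU1 cells it was 1.61 times on the PGAP3 side and 2.28 times on the MIEN1 side. Its part in these differences was not tested. Signal there cannot be assigned to ERBB2 or to its neighbour. H3K4me3 was called as 5 regions in siCONT cells and 3 in siDLEU1 cells, and the unmatched ones lay at 5.6 and 6.2 kb in intron 1, at percentiles of 60.2 and 3.01, near an alternative ERBB2 TSS. The H3K4me3 region on the PGAP3 side had 165 and 103 fragments and percentiles of 98.3 and 53.7, and its local background was 1.0 and 6.47 times the genome level. By fragments its percentile was 96.3 and 88.1, and the part of the background in the difference was not tested.

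ERBB3 (chr12:56470583-56497289, plus strand) was marked at 2 promoters. At the canonical TSS, H3K27ac was 2101 and 1716 bp wide, with 140 and 123 fragments, percentiles of 94.8 and 97.3 and a ratio of 0.642 (0.5 to 0.824). At an alternative TSS 3.8 kb upstream it was 1302 and 864 bp wide, with 120 and 80 fragments, percentiles of 88.1 and 75.5 and a ratio of 0.487 (0.362 to 0.652). The 2 intervals overlapped, and a difference between the promoters was not tested. H3K4me3 was at percentiles of 99.3 and 96.2 at the canonical TSS and of 96.4 and 94.5 at the alternative one, and an added siDLEU1 region of 783 bp lay 7.9 kb upstream at percentile 31.8. EGFR and ERBB3 thus held the strongest H3K27ac promoters among the receptors in both libraries.

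ERBB4 (chr2:212240442-213403565, minus strand), the largest of the genes at 1163 kb, had a single H3K27ac region of 203 bp in intron 19. It was called in siCONT cells alone, with 23 fragments at percentile 2.41, and no H3K4me3 region was called in either library. EGF (chr4:110834039-110934922, plus strand), the founding ligand of the family, had no H3K27ac region in either library. Its H3K4me3 lay about 76 kb into the gene near exon 18 and not at the promoter. The stronger of its 2 regions had 76 and 83 fragments, percentiles of 78 and 85.3 and a ratio of 1.39 (1.01 to 1.93). A promoter mark below the calling threshold cannot be told from its absence.

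HBEGF (chr5:139712428-139726188, minus strand), a ligand that also serves as the receptor for diphtheria toxin, had the highest H3K27ac ratio of the ligands. Its promoter region was 979 bp wide in siCONT cells and 1072 bp in siDLEU1 cells, with 95 fragments in each, and its percentile was 67.3 and 79.5. The ratio was 0.730 (0.544 to 0.981), and 88.4% of all H3K27ac regions had a ratio at or below it, so it stood high among regions although the value was under 1. The local background differed little, at 1.32 and 1.40 times the genome level. H3K4me3 at the same promoter had 82 and 100 fragments, percentiles of 79.0 and 89.0 and a ratio of 1.55 (1.15 to 2.11), with 86.5% of all regions at or below it. Upstream of the promoter, from 0.3 to 2.7 kb, there were 3 further H3K4me3 regions in each library, at percentiles of up to 48.1 and 56.7. A pair of weak control regions in intron 3, at percentiles of 10.8 and 8.37, had no siDLEU1 counterpart. HBEGF was the only ligand at which percentiles of both marks were higher in siDLEU1 cells by fold enrichment, by p and by fragments.

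BTC (chr4:75669969-75719733, minus strand), which encodes betacellulin, was at the other end. Its promoter H3K27ac region was 833 bp wide in siCONT cells and 340 bp in siDLEU1 cells, with 92 and 53 fragments and percentiles of 54.3 and 27.8. The ratio was 0.421 (0.294 to 0.596), and 8.05% of all H3K27ac regions had one as low. The local background was 2.01 times the genome level in both libraries. By fragments the percentile was 61.3 and 33.4. A weak H3K4me3 region of 230 bp at the promoter, at percentile 3.64, was called in siCONT cells alone. BTC was the only member at least 20 percentile points lower for H3K27ac, where 18.4% of 13092 genes were, and EREG the only one at least 20 points higher, where 6.69% were. These counts of 1 of 9 members each are too small to be read against the background.

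EREG (chr4:75230862-75254466, plus strand), the gene of epiregulin, gave an order that turned on the measure. Its promoter H3K27ac region was 1663 and 1394 bp wide, and by fold enrichment its percentile was 54.6 in siCONT cells and 84.2 in siDLEU1 cells. The number of fragments was 141 and 102, a ratio of 0.528 (0.405 to 0.687), and by fragments the percentile was 88.5 and 81.1. The local background at the summit was 4.02 times the genome level in siCONT cells and 1.40 times in siDLEU1 cells, and its part in the difference was not tested. H3K4me3 at the EREG promoter behaved likewise, with percentiles of 66.2 and 84.9, a background of 3.76 and 1.40 times and a ratio of 1.01 (0.752 to 1.35). In intron 1, 9 to 12 kb from the TSS, 5 control H3K4me3 regions faced a single siDLEU1 region of 3649 bp, which had 94 fragments at its summit (9.87 kb). The control region with the most fragments, at 10.5 kb, had 66, which gives a ratio of 1.81 (1.31 to 2.53) between different summits, and the control region nearest to the siDLEU1 summit, at 9.83 kb, had 50. The number of EREG regions was 8 and 5, while the covered length was 6176 and 7013 bp.

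TGFA (chr2:70674416-70781325, minus strand), the gene of TGF-alpha, had a promoter H3K27ac region of 1461 and 1493 bp. By fold enrichment its percentile was 67.2 and 70.7, but its fragments were 115 and 75, with percentiles of 76.1 and 57.1 and a ratio of 0.476 (0.351 to 0.643). Of all regions, 15.95% had a ratio as low. The background was 2.01 and 1.0 times the genome level. At the same promoter H3K4me3 had 126 and 112 fragments and a ratio of 1.13 (0.870 to 1.47), with 56.1% of all regions at or below it, whereas its percentile by fold enrichment was 94.5 and 71.5 with a background of 1.0 and 4.32 times. A cluster of H3K4me3 regions about 28 to 30 kb into intron 1 was present in both libraries, without H3K27ac. After siDLEU1 its strongest region, at 29.1 kb with 70 fragments and percentile 82.0, had the highest fold enrichment of the TGFA regions.

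AREG (chr4:75310853-75320722, plus strand), the gene of amphiregulin, cannot be measured by itself in this build. GRCh37 carries a copy, AREGB (chr4:75480629-75490486), and 13547 bases of AREG and its upstream sequence aligned to it at 99.6% identity. The 200 bases of AREG promoter shown above are identical in the copy, so reads of these copies cannot be told apart. AREG itself had 1 H3K27ac region of 1088 and 867 bp, with 68 and 57 fragments and percentiles of 54.1 and 50.8. The copy had 131 and 80 fragments at its strongest region, at percentiles of 90.4 and 75.5. Summed over both copies, the fragments were 199 and 137, a ratio of 0.503 per M, against 0.612 (0.423 to 0.884) for AREG taken alone. For H3K4me3 the sum was 185 and 140, a ratio of 0.964. The copy had 1 H3K27ac region in siCONT cells and 4 in siDLEU1 cells, and 3 of these 4 were not overlapped. With both copies the H3K27ac cover was 2080 and 2721 bp, a ratio of 1.31, so that its direction differs from that of AREG alone. The H3K4me3 cover was 8116 and 9596 bp, a ratio of 1.18. Counts and cover given for the 10 genes leave the copy out. Within AREG, 7 control H3K4me3 regions were all overlapped, and they covered 3298 and 4164 bp. The AREG promoter region had 61 and 51 fragments, percentiles of 71.1 and 70.2 and a ratio of 1.07 (0.720 to 1.57), and at 4.5 kb, in intron 3, fragments were 35 and 51 with a ratio of 1.86 (1.18 to 2.94).

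**Figure D4:**
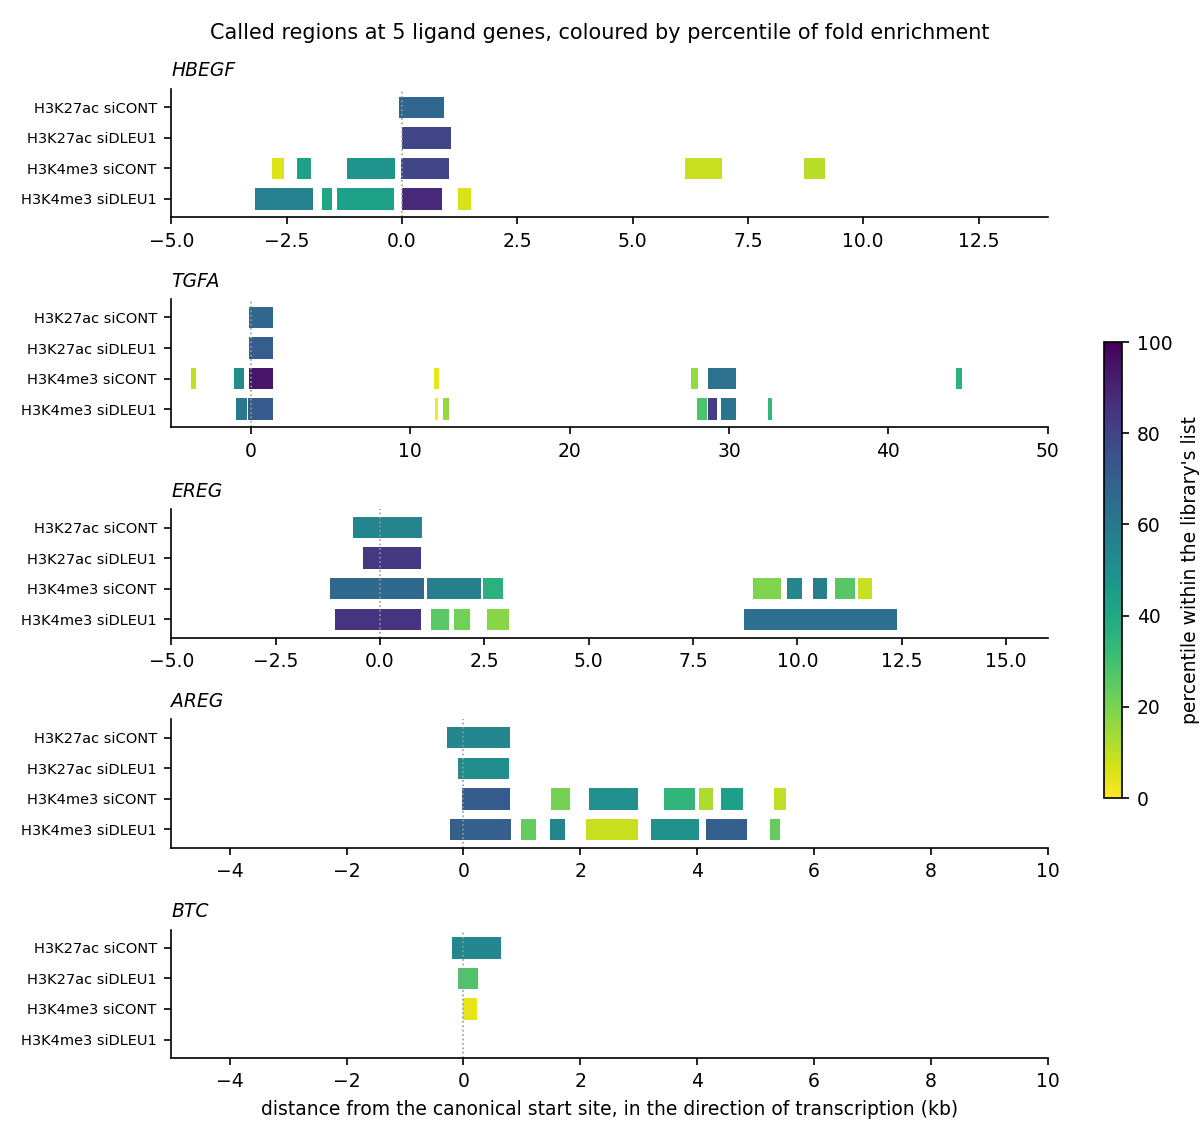
Boxes show the extent of called regions at HBEGF, TGFA, EREG, AREG and BTC by distance from the canonical TSS in kb, in the direction of transcription, with a row for each mark and siRNA. Colour gives the percentile of fold enrichment within the list. The BTC promoter box is shorter in siDLEU1 cells (833 and 340 bp), and 5 control H3K4me3 boxes of EREG near 10 kb face 1 of 3649 bp.

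EREG, AREG and BTC sit with EPGN, the gene of epigen, in a ligand cluster of 546 kb on chromosome 4, and the EREG and AREG TSSs are 80.0 kb apart. EPGN had no region of either mark. The cluster also holds the copy AREGB, with 1 H3K27ac region in siCONT cells and 4 in siDLEU1 cells. Its H3K4me3 regions numbered 7 and 5. Outside all these genes, AREGB included, and their 5 kb upstream, 1 H3K27ac region lay in each library. H3K4me3 regions outside them numbered 17 in siCONT cells and 27 in siDLEU1 cells. The H3K27ac ratios of the neighbouring ligands were 0.528 at EREG, 0.612 at AREG taken alone and 0.421 at BTC. The intervals of these ratios overlapped one another. Summed with its copy, AREG had a ratio of 0.503, so its place relative to EREG depended on the copy.

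Over the 9 members with a region, the H3K27ac percentile was higher in siDLEU1 cells at 6 and lower at 3. Of all genes with a region, 37.5% had a higher percentile. The median change was 3.52 points at the members beside -4.32 over all genes. By fragments the median change was -6.12 beside -4.28, so the position of the members relative to other genes depended on the measure. At the 12 H3K27ac regions paired between the libraries, the median ratio was 0.616 beside 0.577 over all regions. For H3K4me3, cover was longer in siDLEU1 cells at 3 of 9 members, beside 32.6% of all genes with a region. The percentile was higher at 3 members and lower at 6, and it was higher at 53.6% of all genes with a region. Its median change was -0.919 points at the members beside 0.535 over all genes. At EGFR, ERBB2 and TGFA the strongest regions of the libraries did not overlap, so these changes compare different regions. Followed by itself, the strongest control region stood at 98.3 and 53.7 at ERBB2 (the PGAP3 side), 94.5 and 71.5 at TGFA, and 99.4 and 96.6 at EGFR. No member's strongest-region percentile changed by 20 points or more, whereas 7.61% of 14178 genes were at least that much lower and 9.08% at least that much higher. This count depended on the setting, since among regions past 10 on the −log10 q scale the changes were -23.4 at ERBB2, -25.4 at TGFA, 45.2 at EREG and 24.6 at HBEGF, and with regions within 1 kb of a TSS that at TGFA was -22.9. The median ratio over 54 paired H3K4me3 regions was 1.10 beside 1.08. With the strongest overlapping region for each control region these medians were 0.619 over 13 regions and 1.27 over 68, beside 0.584 and 1.13.

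**Figure D5:**
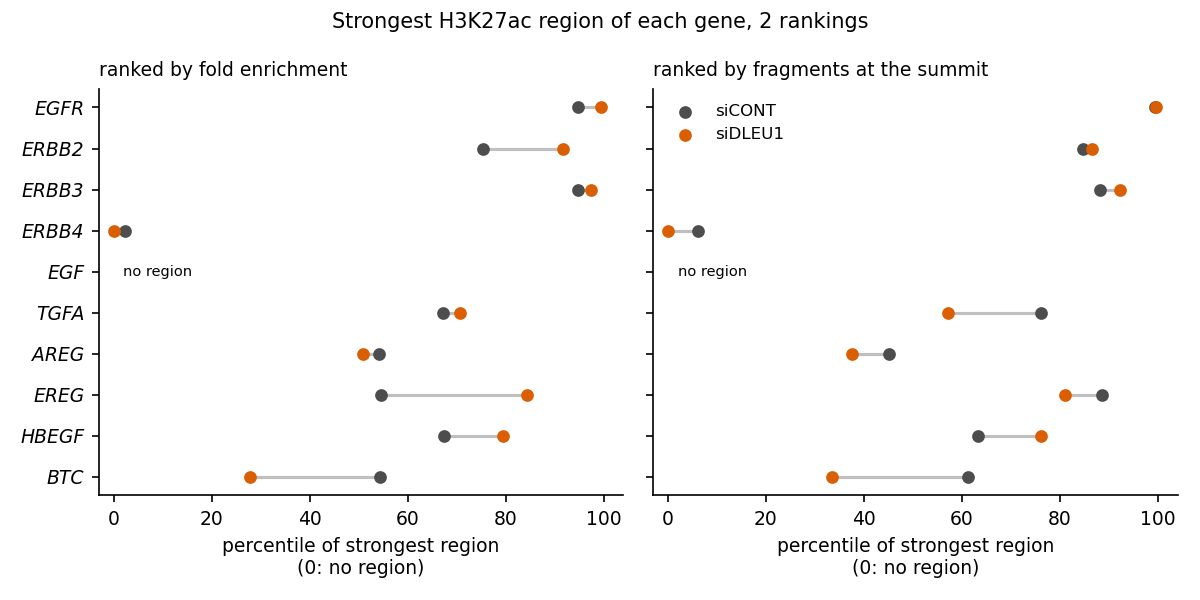
Points give the percentile of the strongest H3K27ac region of each gene among all regions of its list, ranked by fold enrichment (left) or by fragments at the summit (right), in siCONT (grey) and siDLEU1 (orange) cells. EREG moved from 54.6 to 84.2 on the left and from 88.5 to 81.1 on the right, while BTC was lower in siDLEU1 cells on both.

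Downstream of the receptors, a list of 57 pathway genes was set beside the members. Of these, 55 had an H3K27ac region, and 11 were at least 20 percentile points lower and 2 at least 20 points higher in siDLEU1 cells, beside the 18.4% and 6.69% of all genes given above. Their median change was -7.41, beside -4.32 over all genes, and their covered length had a ratio of 0.749, beside 0.744. It was shorter at 52 of them, and 5.89% of all genes with a region had a longer cover. Furthest below their control percentile were PLCG1, a phospholipase recruited by EGFR (94.4 and 50), NRG4, a ligand of ERBB4 (34.8 and no region), ADAM17, the protease that sheds TGFA, AREG and HBEGF (85.1 and 52.7), SOCS3, a feedback inhibitor of cytokine signalling (95.2 and 63.0), and FOSL1, an AP-1 subunit (67.8 and 38.6). The 2 genes with higher values were GAB1, an adaptor (31.8 and 65.7), and CCND1, the gene of cyclin D1 (72.4 and 97.5). By fragments, the changes were -0.127 at PLCG1, -28.0 at NRG4, -10.3 at ADAM17, 6.99 at SOCS3 and 20.3 at FOSL1. They were -23.9 at GAB1 and 1.26 at CCND1, so that 3 of these 7 genes had the opposite sign. By role, 3 of 10 Ras-MAPK genes, 2 of 11 adaptors and early enzymes, 2 of 13 negative regulators, 2 of 10 early target genes, 1 of 4 genes of ligand shedding and 1 of 5 further ligands were at least 20 points lower. None of 4 Akt and STAT genes was. For H3K4me3, 54 genes had a region, 5 were at least 20 points lower and 4 at least 20 points higher, beside 7.61% and 9.08% of all genes, and the median change was -0.798, beside 0.535.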

How the data were processed

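ChIP-seq of H3K27ac and H3K4me3 was analysed in HSC3 cells 72 h after transfection, with 1 library for each siRNA and mark. According to the methods and labels, reads from an Ion Proton were mapped by the authors with bowtie2 to hg19, and MACS2 was run on each library. Its settings, and the control used in calling, are not given in the sources used here. The fold ratio in the deposited lists is the enrichment of the summit over local background within a library. The deposited −log10 p and −log10 q are those of MACS2, and the largest q was 0.0486. Summit positions came from the deposited offset, and the deposited score was left out. The 2 input libraries were not analysed here. No per-sample column was left unmapped.

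Regions on chromosomes 1 to 22 and X were assigned to genes of GENCODE v44 lifted to GRCh37 when they overlapped the gene body or 5 kb upstream. All 10 genes were named. Pathway genes named were the 5 largest falls and up to 5 largest rises in H3K27ac percentile past 20 points, and the 5 genes nearest to EGFR by covered length were added. The members and lists were chosen with earlier results of these data known. Fragments at each summit were solved from the fold enrichment and p, which matched 100% of peaks. Depth assumed a mappable genome of 2.7 Gb, and control libraries came to 7.18 and 6.73 M reads. Regions were paired between the libraries one to one, starting from the control regions with the most fragments. Taking the strongest overlapping siDLEU1 region instead was an alternative chosen after seeing the data. A TSS counted as that of a region within 1 kb. Recovery and overlap were tested on simulated data. Shares have exact binomial intervals. Alternatives tried were a cut at 10 on −log10 q, an overlap of 50% of both regions, regions within 1 kb stitched, equal list lengths, the gene body alone, 1 kb around a TSS, and ranks by −log10 p or fragments. Python 3.11.15, numpy 2.4.6, pandas 2.3.3, scipy 1.17.1, matplotlib 3.10.9 and BLAST 2.17.0 were used.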

Additional observations from a re-analysis of the deposited data

How the results depend on the processing

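No paired analysis was possible because each siRNA and mark has 1 library, and no replicate could be left out. For the share of control regions overlapped, the H3K27ac value of 92.9% was 64.3% with an overlap of 50% of both regions and 100% (13 of 13) with equal list lengths, and the H3K4me3 value of 66.0% was 82.9% at a −log10 q of 10 or more and 35.0% with an overlap of 50%. For the ratio of covered length, the H3K27ac value of 0.859 was 0.776 at a −log10 q of at least 10, 0.871 with equal list lengths and 0.921 over gene bodies alone, and the H3K4me3 value of 0.807 was 0.897, 0.830 and 0.780 in the same order. The median change in H3K27ac percentile of 3.52 was 1.47 by p, -6.12 by fragments, 4.43 at a −log10 q of 10 or more and 4.15 within 1 kb of a TSS. The H3K4me3 median of -0.919 was -0.859, -0.822, 1.06 and -2.46 in the same order. With the strongest overlapping region in place of one-to-one pairs, the median ratio of fragments per M was 0.619 in place of 0.616 for H3K27ac and 1.27 in place of 1.10 for H3K4me3. Single genes changed sign in 8 cases and kept it in 60. TGFA H3K27ac was -1.85 by p, -19.0 by fragments and -3.32 at a −log10 q of at least 10, and EREG H3K27ac was -7.39 by fragments. For H3K4me3, EGFR was 0.0266, TGFA 0.126 and EREG -0.822 by fragments, and AREG was 3.0 at a −log10 q of at least 10. The cause was not tested. With 1 library for each condition, a difference between siRNAs and a difference between libraries cannot be told apart, and regions below the calling threshold could not be compared.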

Other observations

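Motif matches were also counted along EGFR. In 200-base windows centred on the summit, an SP1 match was present in 3 of the 37 control H3K4me3 regions of EGFR that were overlapped in siDLEU1 cells and in none of the 28 that were not, beside 15.5% of all control H3K4me3 regions. An AP-1 match was present in 3 and 1 of them, beside 5.01% of all, and a TEAD match in 3 and 1, beside 10.0%. The median G and C content of these windows was 51.0% in the overlapped regions and 45% in the others. These counts are a description of letters, and no test was run on them.

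ETV4, an ETS factor that is a target of Ras-MAPK signalling, stood out among the pathway genes for H3K4me3 and was chosen after its values were seen. It had 1 region at percentile 8.37 in siCONT cells and 9 regions with a highest percentile of 79.3 in siDLEU1 cells, a change of 70.9 points by fold enrichment and 62.9 by fragments. Its H3K27ac percentile was 16.5 in siCONT cells and 16.4 in siDLEU1 cells.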
